A study of Drosophila melanogaster with 4 samples.

Results

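Isolated narrow CNC peaks are the sites of cap'n collar (CNC) enrichment that stand alone along a chromosome arm and are short. They were chosen by position and width: each lay on 2L, 2R, 3L, 3R, 4 or X, had at least 5000 bp between its edges and those of the nearest peak on both sides, and was under 2000 bp wide. The rule found 839 of the 4758 listed peaks. On the 6 arms these were 17.7% of the 4752 peaks, 18.5% of the 4537 peaks under 2000 bp, and 14.2% of the sequence covered by peaks. Isolation here is among listed peaks, and weaker sites that the list leaves out may lie nearer.

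The peaks come from chromatin immunoprecipitation followed by sequencing (ChIP-seq) of whole Drosophila melanogaster embryos aged 16 to 24 h. There were 2 CNC ChIP libraries, made with the rabbit polyclonal antibody KW0-CNC, and 2 input libraries of chromatin DNA that was not immunoprecipitated. Both groups carried the same strain, Y cn bw sp, and received no treatment that the labels name. Its labelled alleles include the visible markers y[1], cn[1], bw[1] and sp[1]. The further alleles are oc[R3.2], CG33964[R4.2] and lab[R4.2], the gustatory receptor alleles Gr22d[1] and Gr22b[1], and the alleles GstD5[1], Rh6[1], MstProx[1] and LysC[1]. Whole embryos hold many cell types, so the cells in which a site was occupied cannot be told apart. The labels do not say whether the 2 libraries of a group came from separate embryo collections.

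CNC is a basic leucine zipper transcription factor and the fly counterpart of vertebrate Nrf2. It binds DNA together with the small Maf protein Maf-S, at sequences known as antioxidant response elements. The long isoform CncC is held in check by Keap1 and switches on detoxification and antioxidant genes, while the isoform CncB acts in patterning the embryonic head. The isoforms share the DNA-binding region, and the antigen named in the labels contains part of it, so a peak does not tell them apart.

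For each peak the deposited list gives the arm, the edges and 1 score assigned by the authors, on a scale that the list does not explain. That score has no replicates, and read depth is unknown, so no spread between libraries stands behind any value below. Comparisons between sets of peaks within this list are descriptions without a test. The 95% intervals are exact binomial (Clopper-Pearson for shares, order statistics for medians), cover counting error only, and treat peaks as independent. Coordinates are 1-based on FlyBase release 5, and no gene, exon or promoter was assigned to a site because the gene table used here was of another release.

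Most isolated narrow peaks had low scores, and a small number stood far above the rest. Scores ran from 6.30 to 106.91 with a median of 12.1 (95% interval 11.8 to 12.7), and the middle 50% lay between 9.78 and 16.9. The 3698 other narrow peaks, each with a neighbour closer than 5000 bp on at least 1 side, had a median of 12.3 (95% interval 12.1 to 12.4), with a middle 50% from 9.93 to 16.2. The middle 50% of both sets thus overlapped. The lowest 25% of all scores on the arms took in 233 isolated narrow peaks (27.8%) and 971 of the others (26.3%), and the highest 25% took in 193 isolated narrow peaks and 782 of the others.

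Width, which the rule limited from above, had a median of 362 bp and a maximum of 1985 bp, against 367 and 1987 bp for the other narrow peaks. The smallest width in the whole list was shared by 26 isolated narrow peaks (3.10%) and by 89 of the others (2.41%). Score went with width among the isolated narrow peaks, with rho of 0.70 (Spearman) and r of 0.75 (Pearson, on log2 values) over 839 peaks. Over the 3698 other narrow peaks rho was also 0.70, with r of 0.74. The 2 measures are outputs of 1 peak call, and so are tied to each other. By arm, rho among the isolated narrow peaks ran from 0.63 over 173 peaks on 3L to 0.74 over 194 peaks on 3R.

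**Figure D1:**
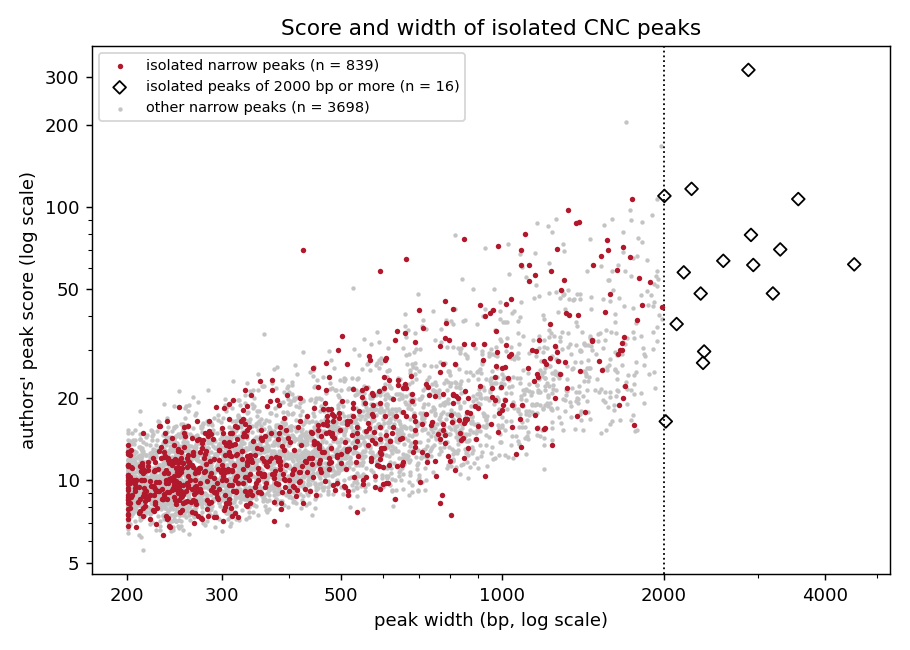
Score assigned by the authors (vertical, log scale) against width in bp (horizontal, log scale) for 839 isolated narrow peaks, 16 isolated peaks of 2000 bp or more and 3698 other narrow peaks; each mark is 1 peak and the dotted line is the 2000 bp limit. The isolated narrow peaks run through the cloud of the others, and the mark at 425 bp with a score of 69.77 lies well above peaks of like width.

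The strongest isolated narrow peak lay on 3L from 22448816 to 22450560. It scored 106.91, ranked 45 in the whole list, was 1745 bp wide, and had its nearest peak 14.0 kb away on one side and 89.8 kb on the other. It was the only one of the 839 with a score of 100 or more. The next, on 2R from 4331538 to 4332865, scored 97.35 at 1328 bp wide with gaps of 46.7 and 121.9 kb. On 2L the highest score was 88.41, from 12365115 to 12366503. The leading site of 3R, from 11682370 to 11683471, scored 79.64, that of X, from 17995047 to 17996574, scored 66.53, and that of chromosome 4, from 1000373 to 1001010, scored 23.27.

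The 20 strongest isolated narrow peaks scored from 59.15 to 106.91 and had a median width of 1350 bp, against 362 bp for the whole set. Of the 20, 7 lay on 3L, 4 each on 2L, 2R and 3R, 1 on X and none on chromosome 4. Of all isolated narrow peaks 20.6% lay on 3L, 18.5% on 2L, 20.5% on 2R, 23.1% on 3R, 16.4% on X and 0.83% on chromosome 4. The 3L sites after the strongest began at 505128 (score 87.46), 15155204 (score 71.56), 14992185 (score 69.45), 3224871 (score 61.63), 12258555 (score 61.46) and 9469398 (score 59.15). On 3R the sites after the first began at 11373214 (score 76.39), 10678973 (score 72.39) and 4068969 (score 70.31). The remaining 2L sites began at 3123601 (score 75.79), 1142452 (score 69.45) and 3803565 (score 64.91). On 2R they began at 16771919 (score 69.77), 1922905 (score 65.70) and 5792661 (score 61.44). Of the 20, 16 were over 1000 bp wide.

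A few strong sites were compact. Among these 20, 4 were under 1000 bp wide and 2 of them under 700 bp. The most compact, on 2R from 16771919 to 16772343, scored 69.77 over 425 bp, and no other listed narrow peak under 500 bp wide, isolated or not, scored 50 or more. It had no peak within 47.4 kb. The other, on 2L from 3803565 to 3804225, scored 64.91 over 661 bp, with its nearest peak 23.8 kb away on one side and a gap of 528.2 kb on the other. The 3R site of 850 bp from 11373214 to 11374063 scored 76.39 with no peak within 136.0 kb, and that of 982 bp from 10678973 to 10679954 scored 72.39 with no peak within 40.0 kb.

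High scores made up a larger share of the isolated narrow peaks than of the other narrow peaks. A score of 50 or more was listed for 27 of 839 isolated narrow peaks (3.22%, 95% interval 2.13 to 4.65%), against 50 of 3698 other narrow peaks (1.35%, 95% interval 1.01 to 1.78%). For a score of 30 or more the shares were 8.46% (71 peaks) and 5.33% (197 peaks), and for 20 or more 18.0% (151 peaks) and 15.5% (575 peaks). These shares are of narrow peaks alone. Of the 855 isolated peaks of any width 16 were 2000 bp or wider (1.87%, 95% interval 1.07 to 3.02%), against 199 of the 3897 peaks in groups (5.11%, 95% interval 4.44 to 5.84%). Counted at any width, 4.33% of isolated peaks (37 of 855) and 4.64% of grouped peaks (181 of 3897) scored 50 or more. The part of the width limit in the difference between narrow peaks was not tested.

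At matched width the 2 sets were close in the shorter classes, and how far apart they stood in the wider ones depended on the gap that counts as isolated. Up to 250 bp the median score was 9.81 for 183 isolated narrow peaks and 9.75 for 832 others. Over 250 and up to 300 bp it was 10.6 for 121 isolated narrow peaks and 10.4 for 525 others, and from there to 400 bp it was 11.4 for 159 and 11.6 for 673. From there to 600 bp the medians were 13.5 over 159 isolated narrow peaks and 13.1 over 707 others. In these 4 classes each median lay inside the interval of the other set, and the difference ran from -0.23 to 0.38 score units. With a gap of 20000 bp the difference in the last of these classes was 2.07 over 62 isolated narrow peaks.

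From 600 to 1000 bp the medians were 17.8 over 131 isolated narrow peaks (95% interval 16.6 to 20.3) and 16.8 over 567 others (95% interval 16.1 to 17.5), so the intervals overlapped. This difference of 0.99 was larger with the shorter gap of 2000 bp (1.78) and with longer gaps. It was 2.35 with 10000 bp, and 4.50 with a gap of 20000 bp over 53 isolated narrow peaks. Over 1000 bp the isolated narrow peaks had a median of 30.1 over 86 peaks (95% interval 27.4 to 37.5), and the others 25.2 over 394 peaks (95% interval 24.0 to 26.5). In that class the intervals did not overlap, and scores of 50 or more were listed for 22 of 86 isolated narrow peaks (25.6%, 95% interval 16.8 to 36.1%) and 44 of 394 others (11.2%, 95% interval 8.23 to 14.7%). The difference in medians, 4.86 as given, was 2.19 with a gap of 2000 bp and 3.94 with 20000 bp. Median widths in the class were 1269 bp for the isolated narrow peaks and 1307 bp for the others. Over all 839 isolated narrow peaks, the median difference between a peak's score and the median of the others in its width class was 0.31 (95% interval 0.04 to 0.57), and 54.4% scored above it. Set against others within 10 bp of the same width, the median difference was 0.14 with an interval that included 0 (-0.14 to 0.42, over 838 peaks that had such a partner). Both intervals take the medians of the others as fixed and leave out their counting error, so they are too narrow for a difference between 2 sets.

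**Figure D2:**
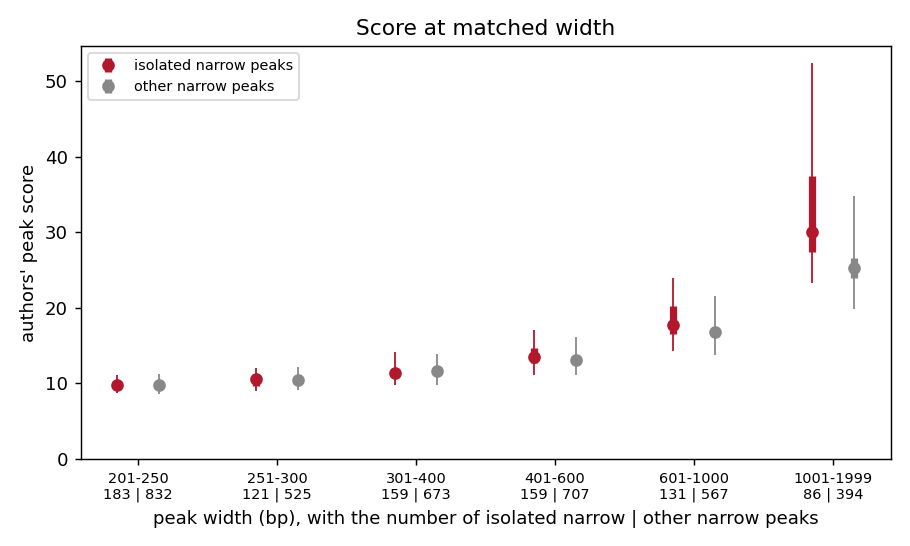
Median score (points) of isolated narrow peaks and other narrow peaks in 6 width classes; thick bars are the 95% order-statistic interval of the median, thin lines the middle 50% of scores, and the numbers under each class count both sets. The points lie close together up to 600 bp and stand apart over 1000 bp, at 30.1 and 25.2; with longer gaps the classes from 400 to 1000 bp also moved apart.

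Isolated peaks of 2000 bp or more, which the width limit kept out, were few and mostly strong. There were 16, with scores from 16.44 to 318.19 and a median of 61.6, against a median of 64.3 for the 199 broad peaks that lay in groups. The highest of them was the strongest site of the whole list, on 2R from 5578417 to 5581293. Those next in score were on 3R from 14397852 to 14400105 (score 116.75), on 3L from 22127603 to 22129608 (score 110.01) and on 3R from 6500199 to 6503762 (score 107.14). From 79.19 down to 57.75 followed sites beginning at 2644681 on 2R, 4830577 and 11809391 on 3R, 16602040 and 15493527 on 3L, and 13512936 on 2L. The lowest scores, from 48.34 to 16.44, belonged to sites beginning at 12718425, 71786 and 15909917 on 2L, 8537741 on 3L, 19576313 on X and 8806663 on 3R.

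Peaks just inside and just outside the limits of the rule had overlapping scores. The widest isolated narrow peaks were 1985 bp on 3R from 4169085 (score 42.98), 1882 bp on 2R from 13435165 (score 53.25) and 1820 bp on 2R from 16214061 (score 43.94), followed by 1801 bp on 2R from 18365856 (score 55.28) and 1782 bp on 3R from 304213 (score 38.63). Just beyond the width limit stood isolated peaks of 2006 bp (score 110.01), 2018 bp (score 16.44) and 2114 bp (score 37.36). Closest to the gap limit from inside were a pair on 3R that begin at 22701566 and 22707087, with 5042 bp between them and scores of 18.20 and 13.95, and a 2R site from 13326673 with a gap of 5058 bp and a score of 14.06. Just outside it were narrow peaks with gaps of 4974 bp (2R, from 8758166, score 18.29), 4959 bp (3L, from 9454640, score 18.89) and 4950 bp (3L, from 11516448, score 17.71).

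The empty stretches around isolated narrow peaks were uneven in length. The nearer gap, which the rule sets to at least 5000 bp, had a median of 15.1 kb and a middle 50% from 8.53 to 32.9 kb, while the farther gap had a median of 61.4 kb and reached 574.4 kb. Within one peak the farther gap was a median of 2.89 times the nearer. This ratio is at least 1 by construction, and it was not computed for other peaks. For 273 peaks (32.5%) the nearest neighbour lay under 10 kb away. No peak was listed within 20 kb on either side of 334 (39.8%), within 50 kb of 109 (13.0%) and within 100 kb of 43 (5.13%). Of the 839, 6 had no neighbour on 1 side, where the list ends on their arm.

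The 5 loneliest sites scored from 9.75 to 21.41, against a median of 12.1 for all isolated narrow peaks. On 2L a peak of 252 bp from 11446052 to 11446303 scored 12.05 and had no peak within 361.2 kb, and one of 273 bp from 14706253 to 14706525 scored 9.75 with none within 331.3 kb. An X site from 20122865 to 20123203 scored 12.39 with none within 266.1 kb, and another from 9766958 to 9767192 scored 14.91 with none within 229.1 kb. The first site of chromosome 4, from 89342 to 89888, scored 21.41 and had its only neighbour 238.5 kb away. None of these 5 was wider than 547 bp. Strong sites could also lie far from other peaks. The 3R site from 11373214 (score 76.39) had none within 136.0 kb, and the 3L site from 14992185 (score 69.45) none within 100.6 kb.

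**Figure D3:**
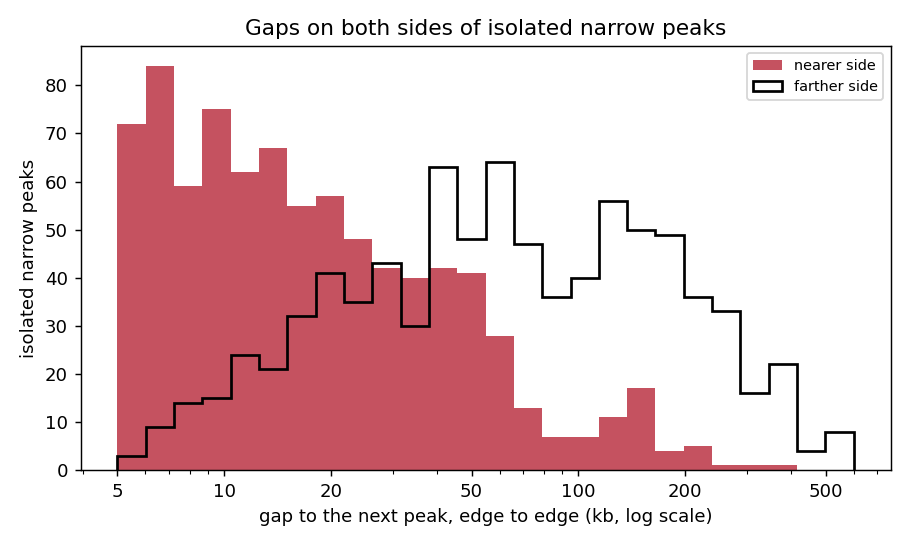
Number of isolated narrow peaks (vertical) by the gap to the next peak in kb, edge to edge (horizontal, log scale), for the nearer side (filled) and the farther side (outline) of each peak. Gaps on the nearer side pile up towards the 5 kb limit, with a median of 15.1 kb, and those on the farther side centre on 61.4 kb.

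Distance from other peaks went with score only weakly. Among the 210 isolated narrow peaks with the shortest nearer gaps (5.04 to 8.53 kb) the median score was 11.8, in the next 210 it was 12.1, in the next 210 it was 12.4, and among the 209 with the longest (32.9 to 361.2 kb) it was 12.3. Scores of 30 or more made up 8.10%, 7.14%, 9.05% and 9.57% of these 4 sets. Spearman's rho between score and nearer gap was 0.06 and Pearson's r on log2 values 0.07 over the 839 peaks, and for the farther gap both were 0.10. Width and nearer gap had rho of 0.01. These peaks share 1 set of libraries and 1 peak call, and the coefficients only describe them.

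The score of an isolated narrow peak also showed little relation to that of its nearest peak, with rho of -0.004 and r of -0.03 over the 839 peaks. The nearest peaks scored a median of 12.3 at a median of 378 bp wide, and 23 of them (2.74%) were 2000 bp or wider. An isolated narrow peak scored above its nearest peak in 391 cases, below it in 444 and the same in 4. Isolated narrow peaks that were each other's nearest entered once in each order, so the 839 cases are not all distinct pairs. Such repeats draw the counts above and below together by construction.

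The number of isolated narrow peaks per Mb differed by less than 1.5 times among the large arms. There were 194 on 3R, 173 on 3L, 172 on 2R, 155 on 2L, 138 on X and 7 on chromosome 4. Per Mb of span, measured from the first to the last listed peak of an arm, they numbered 8.95 on 2R, 7.68 on chromosome 4, 7.60 on 3L, 7.15 on 2L, 6.99 on 3R and 6.55 on X. All peaks ran from 53.7 per Mb on 2R through 45.0 on 3R, 38.4 on 3L, 37.5 on X and 37.0 on 2L down to 7.68 on chromosome 4. The value of chromosome 4 rests on 7 peaks (exact 95% Poisson interval 3.09 to 15.8 per Mb), and the first and last of the same 7 set its span of 0.91 Mb. As a share of the peaks of an arm, the isolated narrow ones were 19.8% on 3L (95% interval 17.2 to 22.6%), 19.4% on 2L, 17.5% on X, 16.7% on 2R and 15.5% on 3R (95% interval 13.6 to 17.7%). The intervals of 3L and 3R, the ends of that order among the large arms, overlapped.

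Chromosome 4, the short chromosome, carried only peaks of this kind. All 7 of its listed peaks were isolated and narrow (exact 95% interval of the share 59.0 to 100%). The first sites along it began at 89342 (score 21.41, 547 bp), 328395 (score 15.59, 1162 bp) and 378736 (score 9.84, 226 bp). Next came sites beginning at 436200 (score 11.58, 254 bp) and 578504 (score 16.47, 514 bp). The last began at 856229 (score 8.52, the smallest listed width) and 1000373 (score 23.27, 638 bp). The median of these scores was 15.6, and the shortest gap between neighbours was 49.2 kb. No grouped peak was listed on it.

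Median scores of isolated narrow peaks on the large arms were 12.5 on 2L, 12.5 on 2R, 12.4 on 3R, 12.1 on X and 11.6 on 3L. The other narrow peaks of the same arms had medians of 12.2 on 2L, 12.2 on 2R, 12.5 on 3R, 12.1 on X and 12.3 on 3L. The arm 3L thus had the lowest median among isolated narrow peaks and also 8 of the 27 that scored 50 or more, against 7 on 3R, 6 on 2R, 5 on 2L and 1 on X. These counts are small, and the same arms held 20.6%, 23.1%, 20.5%, 18.5% and 16.4% of all isolated narrow peaks. Median widths ran from 351 bp on 2L to 390 bp on 2R.

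**Figure D4:**
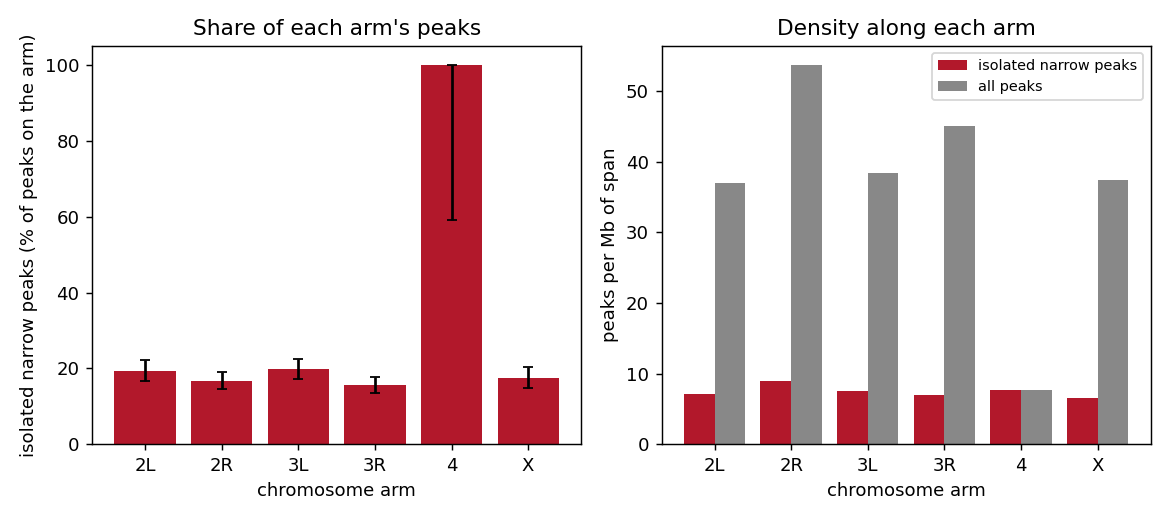
Left, isolated narrow peaks as a percentage of all peaks on each arm, with exact 95% intervals; right, isolated narrow peaks and all peaks per Mb of each arm's span. The large arms lie between 15.5 and 19.8%, chromosome 4 is at 100%, and the density of isolated narrow peaks lies between 6.55 and 8.95 per Mb on the large arms; that of chromosome 4 rests on 7 peaks.

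Along the large arms, isolated narrow peaks and all peaks varied alike from megabase to megabase by SD over mean, but not by variance over mean. Over 106 complete megabases they numbered 7.33 ± 3.13 per megabase (SD), from 0 to 17, against 42.0 ± 19.5 for all peaks, from 5 to 99. The SD was 0.43 times the mean for isolated narrow peaks and 0.46 times for all peaks, and the fullest megabase held 2.32 and 2.36 times the mean. The variance was 1.34 times the mean for isolated narrow peaks and 9.04 times for all peaks. Counting error makes up more of the SD where the mean is small, so the likeness in SD over mean is not a likeness in clumping. Numbers of isolated narrow peaks and of all peaks per megabase had rho of 0.40 and r of 0.34 over the 106 megabases, a description in which the first are part of the second. The 36 megabases richest in peaks held 8.39 isolated narrow peaks each (13.2% of their peaks), the 35 intermediate ones 7.54 (18.8%) and the 35 poorest 6.03 (28.1%). The shares are not independent of the rule, since a gap of 5000 bp on both sides is harder to meet where peaks lie more densely. The part of the rule in their order was not tested. The megabase with the most was X from 3 to 4 Mb, chosen after its values were seen, where 17 of 27 peaks were isolated and narrow.

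Isolated narrow peaks made up a large part of the separate places at which CNC peaks were listed. When peaks less than 5000 bp apart were joined, the arms held 1817 separate units, of which 839 (46.2%) were isolated narrow peaks, 16 isolated broad peaks and 962 groups. Isolated narrow peaks covered 423 kb and the groups 2524 kb. Their median score of 12.1 can be set beside the narrow peaks inside groups, whose medians were also 12.1 in groups of 2, of 3, and of 4 to 5 peaks, 12.3 in groups of 6 to 9, and 12.6 in groups of 10 or more. The strongest peak of a group scored higher, with medians of 15.8 over 384 groups of 2, 20.0 over 179 groups of 3, and 52.5 over 49 groups of 10 or more. The highest of several values exceeds a single value by construction, and broad peaks count among them.

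**Figure D5:**
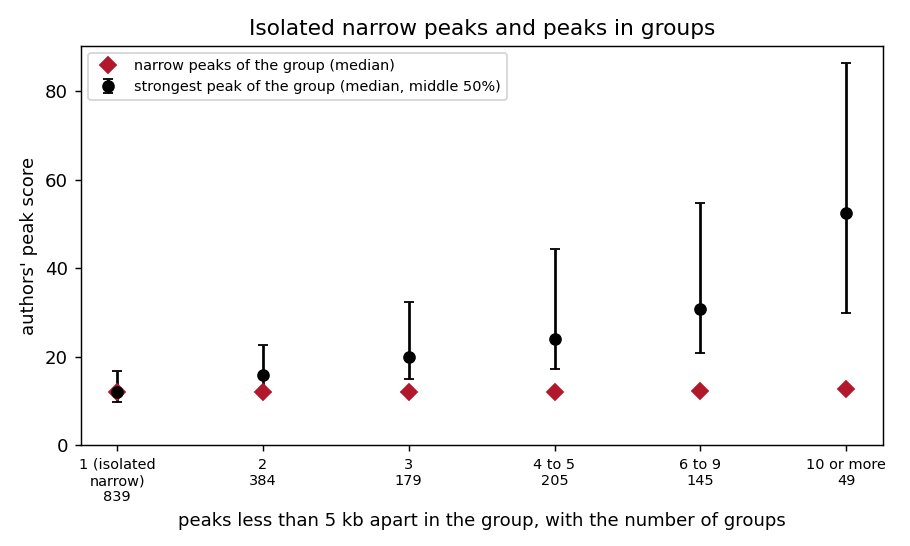
Score of the strongest peak (circles, median with the middle 50%) and of the narrow peaks (diamonds, median) by the number of peaks less than 5 kb apart, with isolated narrow peaks at the left and the number of groups under each class. Diamonds stay between 12.1 and 12.6, while circles reach 52.5 in groups of 10 or more peaks.

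Isolated narrow peaks neighboured each other about as often as their share of the units. Of 1672 positions next to an isolated narrow peak, 808 (48.3%) held another, 846 (50.6%) the edge of a group and 18 (1.08%) an isolated broad peak. Another stood on both sides of 24.0% of them, on 1 side of 48.4% (406 peaks) and on neither side of 27.7% (232 peaks). Gaps between 2 isolated narrow peaks had a median of 35.6 kb over 404 cases, those between one and a group 26.3 kb over 846, and those between 2 groups 21.9 kb over 529. The middle 50% of these gaps overlapped widely, at 14.3 to 88.5 kb, 11.5 to 65.5 kb and 10.7 to 56.9 kb.

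In places many followed one another with no group between them. The 839 peaks formed 435 runs, of which 26 held 5 or more peaks (164 in all). Runs also arise by construction where 46.2% of the units are isolated narrow peaks. The number of long runs that this share alone would give was not computed, so the runs are not read as clustering. The longest run lay on X from 17016528 to 17645993, with 10 peaks over 629 kb. Their scores, in order along the arm, were 14.91, 8.83, 9.75, 28.15, 9.75, 13.06, 11.37, 32.70, 10.70 and 9.75, none was wider than 795 bp, and the gaps between them from 10.9 to 239.7 kb. The sites of 28.15, from 17425940 to 17426546, and of 32.70, from 17603356 to 17604150, stood out in it, and the other 8 scored under 15. Other long runs were 9 peaks on X from 2592196 to 3324676 (732 kb, highest score 24.44), 9 on 2R from 11429462 to 11705105 (276 kb, highest score 21.80), 8 on 3L from 12824046 to 13426222 (602 kb, highest score 32.74) and 8 on X from 3677288 to 4000181 (323 kb, highest score 27.68). These 4 were chosen after their values were seen. No peak in the 5 longest runs scored 50 or more.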

How the data were processed

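Libraries were 2 CNC ChIP and 2 input, grouped by their titles. The authors deposited 1 peak list for the series, with a score per peak. Per the file headers it uses FlyBase release 5 and MACS. The submitters' processing notes name BWA, MACS2, the build BDGP5 and CASAVA 1.7.0.2 and 1.7.0.3. What the authors' score measures is not given in the sources used here, nor are the peak threshold and any pooling of libraries. Gaps ran from edge to edge. Medians, exact binomial intervals and correlation coefficients were computed with Python 3.11.15, numpy 2.4.6, pandas 2.3.3 and scipy 1.17.1, and the procedure was tested on a simulated list. The members and named sites (the 20 highest scores, the leader of each arm, the 5 widest, the 5 loneliest, chromosome 4, those nearest the limits, the longest run and all isolated broad peaks) follow rules chosen with earlier results of these data known. The planned sequence, gene and gene list descriptions were not run, for lack of a release 5 genome or annotation. Alternatives changed the gap, the width limit, the distance, the peaks used and their merging. Read depth is unknown.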

Additional observations from a re-analysis of the deposited data

How the results depend on the processing

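Of 141 values recomputed under alternatives, 117 stayed within the interval of the reported value, or within 1.5 times it for counts. The number of isolated narrow peaks was 1266 with a gap of 2000 bp, 334 with 20000 bp, and 533 among the 25% of peaks with the highest score, where fewer peaks leave longer gaps. Their median score was 11.7 with a width under 1000 bp, 17.3 and 23.9 among the 50% and 25% of peaks with the highest score (a selection on score itself), and 12.7 with peaks under 1000 bp apart merged. With a gap of 20000 bp the arm shares were 15.9% on 2L, 24.3% on 3L and 2.10% on chromosome 4, and the median difference in score at matched width was 0.70. In that setting the difference between medians was 2.07 from 400 to 600 bp and 4.50 from 600 to 1000 bp, against 0.38 and 0.99 as reported, and 3.94 over 1000 bp, so the widest class no longer led. With 2000 bp it was 2.19 over 1000 bp, against 4.86 as reported, and still counted as inside its range. The percentage with another isolated narrow peak next to them, 72.3% as reported, was 81.4, 67.8 and 57.8 with gaps of 2000, 10000 and 20000 bp, 66.4 with a width under 1000 bp, 81.2 and 86.7 among the 50% and 25% of peaks with the highest score, and 77.6 and 82.7 after merging under 200 and 1000 bp. The percentage of neighbours that were isolated narrow peaks was 56.7, 44.0 and 35.0 with the 3 other gaps. Their share of the units also depends on the gap and was not computed for these gaps. The likeness of the neighbour share to the unit share was thus seen at 5000 bp only. The cause of these changes was not tested, beyond what fewer or more peaks give by construction. Scores of 50 or more were a larger share of isolated narrow peaks than of other narrow peaks under every alternative that kept a width limit. Without one the shares were 4.33% and 4.64%. With a width under 1000 bp the counts were small, at 5 of 753 and 6 of 3304. The alternatives reuse the same peaks and are not independent. Merging gave a joined peak its highest score and full width, which can take strong grouped peaks past the width limit. No paired analysis was possible because scores are given once for the series, and no replicate could be left out. Without read depth, weak sites below the unknown threshold cannot be told from unbound sequence, so a peak listed as isolated may have unlisted neighbours.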

Other observations

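On Uextra, which gathers sequence with no place on the chromosomes, 4 of the 6 listed peaks also met the gap and width limits, with scores of 14.17, 23.54, 32.04 and 27.68. They are outside the set because the rule takes in the 6 arms only.

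Scores repeated across peaks. The 839 isolated narrow peaks took 514 distinct score values, and the 3698 other narrow peaks 1365. The most frequent among the isolated narrow peaks, 9.13, was listed for 41 peaks in all. Of these, 13 were isolated narrow peaks, whose widths ran from 207 to 516 bp. The next, 9.75 and 10.06, were shared by 12 and 11 isolated narrow peaks. The 5 most frequent values held 54 isolated narrow peaks (6.44%) and 113 other narrow peaks (3.06%). The last of the 5 were picked from a tie of 8.52, 8.23, 11.37, 12.05 and 14.91, at 9 isolated narrow peaks each. The count of other narrow peaks depends on that pick. The 5 values were chosen as the most frequent among the isolated narrow peaks, which raises the first share by construction.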
